A study of Mus musculus with 12 samples.

Results

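Open chromatin of mouse embryonic fibroblasts (MEFs) was compared with that of the same kind of cell after 72 h of reprogramming, in the control cells of the study. The comparison used 1 merged peak list per group, and peaks were kept where −log10 of the q-value reached 5. In this way 124580 of the 166486 MEF control peaks and 122374 of the 170135 reprogramming control peaks were kept, which makes 246954 of the 661623 peaks in all 4 lists of the series. A kept MEF peak that overlapped no peak of any strength in the reprogramming list was called lost. A kept reprogramming peak with no overlap in the MEF list was called gained, and all other peaks were called shared.

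The series holds 12 Omni-ATAC-seq libraries, an assay in which a transposase cuts accessible DNA, with 3 libraries in each of 4 groups and 50000 sorted cells per library. All groups came from passage 2 fibroblasts, labelled as strain 129 and isolated from chimeric E12.5 embryos made by aggregating morulae with the Cas9 TNG MKOS ES cell line. That line is 1 clone derived from E14Tg2a and carries Cas9 under the EF1α promoter at Rosa26, a Nanog-GFP reporter, and a doxycycline-inducible cassette for MYC, KLF4, OCT4 and SOX2 with mOrange at the Sp3 locus. The labels give the genotype of the control groups as wild type, but per the methods these alleles were in every group. MEF control cells received a non-targeting guide RNA by lentivirus and stayed in MEF medium until harvest at 96 h. Reprogramming control cells received the same guide and, from 24 h on, ES cell medium to which 300 ng/ml of doxycycline and vitamin C at 10 µg/ml were added, so that the factors were on for 72 h of the 96 h. Per the methods, which refer to the plating used for RNA-seq, the reprogramming cells were also seeded among wild-type MEFs of strain 129, and they were sorted for mOrange, so that the medium, the vitamin C, the co-culture and the sort moved with the factors and cannot be told apart from them here. Chimeric embryos also hold cells of the host embryo, here from B6CBAF1 females, which lack the cassette, and their share in the MEF libraries is not given in the sources used here. The corresponding Zfp266 knock-out groups (KO) were used as a repeat of the comparison in other libraries.

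Reprogramming with these factors turns a fibroblast towards a pluripotent state over several weeks, and only a small part of the cells complete it. OCT4 and SOX2 can bind DNA within closed chromatin, often side by side on a composite site, and KLF4 binds GC-rich boxes, whereas fibroblast enhancers are known to be held open by AP-1 (FOS and JUN dimers) together with TEAD, RUNX and CEBP factors. Early changes described in this system include the retreat of fibroblast enhancers and a mesenchymal-to-epithelial transition, while most pluripotency genes are activated late.

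Short strings known from the binding sites of these factors were searched on both strands in the central 300 bp of each peak. They were TGACTCA for AP-1, ACATTCC for TEAD, TGTGGTT for RUNX, ATTTGCAT for OCT, CCATTGT or CCTTTGT for SOX, TTGTNATGC for the composite OCT-SOX site, and GGGTGTGG or GGGCGTGG for KLF. The SOX and OCT-SOX strings can overlap where a SOX string is followed by the other letters, and KLF and RUNX strings can overlap too. To show what such peaks look like, 7 are printed here from the forward strand of GRCm38, with the strings of either strand in capitals, and cut back where needed to leave out untranslated regions. They were chosen from the named peaks after their values were seen and for the strings that they hold, so they illustrate the classes and are no evidence of them.

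Sequences on the fibroblast side are shown first. The lost promoter peak of Slc17a8 (chr10:89599409-89599551), a vesicular glutamate transporter, holds 2 AP-1 strings. The lost distal peak near Lum (chr10:97556272-97556571), the matrix proteoglycan lumican, holds 2 TEAD strings. The peak near Klf6 (chr13:5837364-5837663) was shared but lower at 72 h, and holds 1 TEAD string followed by 2 AP-1 strings.
Slc17a8: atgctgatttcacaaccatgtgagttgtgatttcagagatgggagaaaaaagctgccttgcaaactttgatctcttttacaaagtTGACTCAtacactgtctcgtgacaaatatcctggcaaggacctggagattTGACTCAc
Lum: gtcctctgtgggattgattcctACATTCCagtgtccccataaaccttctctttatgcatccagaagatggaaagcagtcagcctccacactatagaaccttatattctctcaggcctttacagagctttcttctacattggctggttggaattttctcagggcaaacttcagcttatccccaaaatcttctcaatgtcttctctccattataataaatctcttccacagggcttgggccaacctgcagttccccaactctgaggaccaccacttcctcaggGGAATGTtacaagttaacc
Klf6: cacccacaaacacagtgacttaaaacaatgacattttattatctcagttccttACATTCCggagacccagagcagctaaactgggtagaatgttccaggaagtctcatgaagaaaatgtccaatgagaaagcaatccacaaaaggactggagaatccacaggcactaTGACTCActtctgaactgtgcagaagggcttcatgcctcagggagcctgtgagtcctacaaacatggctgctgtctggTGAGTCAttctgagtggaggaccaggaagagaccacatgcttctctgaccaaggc

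Sequences on the reprogramming side follow. The gained promoter peak of Zfp42 (chr8:43306981-43307169), which encodes the ES cell marker REX1, holds 1 KLF string. The gained peak in an intron near Lrrk2 (chr15:91735415-91735714), a leucine-rich repeat kinase, holds 1 AP-1 and 1 SOX string. The peak near Creb5 (chr6:53497970-53498269) was shared but higher at 72 h, and holds an AP-1 string that runs into an OCT-SOX string, with another AP-1 string before and a SOX string after them. The peak near Zc3h12c (chr9:52370038-52370337), also shared and higher, holds 1 OCT and 1 KLF string.
Zfp42: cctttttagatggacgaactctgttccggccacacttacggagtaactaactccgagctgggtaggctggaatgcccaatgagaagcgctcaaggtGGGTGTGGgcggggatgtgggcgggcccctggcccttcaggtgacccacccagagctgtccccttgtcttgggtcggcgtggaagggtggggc
Lrrk2: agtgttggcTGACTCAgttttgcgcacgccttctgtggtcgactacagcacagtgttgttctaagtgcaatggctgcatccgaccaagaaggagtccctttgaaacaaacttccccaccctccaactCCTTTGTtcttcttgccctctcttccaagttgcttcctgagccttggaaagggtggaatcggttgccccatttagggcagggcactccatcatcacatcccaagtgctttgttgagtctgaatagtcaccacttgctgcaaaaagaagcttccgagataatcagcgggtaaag
Creb5: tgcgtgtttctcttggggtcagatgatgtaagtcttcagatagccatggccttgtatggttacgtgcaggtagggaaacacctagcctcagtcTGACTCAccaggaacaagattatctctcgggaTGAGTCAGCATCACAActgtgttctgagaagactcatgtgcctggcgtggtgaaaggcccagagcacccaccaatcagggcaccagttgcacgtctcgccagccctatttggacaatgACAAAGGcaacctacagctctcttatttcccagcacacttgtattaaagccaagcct
Zc3h12c: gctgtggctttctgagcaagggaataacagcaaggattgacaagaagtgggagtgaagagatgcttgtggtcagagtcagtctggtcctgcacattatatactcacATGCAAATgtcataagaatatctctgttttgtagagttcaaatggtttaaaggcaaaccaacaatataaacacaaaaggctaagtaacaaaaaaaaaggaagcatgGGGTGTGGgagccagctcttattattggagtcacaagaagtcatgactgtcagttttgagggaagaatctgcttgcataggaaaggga

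About as many peaks were lost as were gained. Of the MEF control peaks, 60566 (48.6%) had no counterpart after 72 h, and of the reprogramming control peaks, 63011 (51.5%) had none in MEFs. The lists have no replicate error, because the authors merged the 3 libraries of a group before peak calling, so these shares carry no test. As a yardstick, lists of control and KO cells from the same context differed far less. Only 1.79% of MEF control peaks were absent from the MEF KO list and 1.31% the other way around, and in reprogramming cells these shares were 2.95% and 1.93%. The KO lists, compared with each other across the same 72 h, gave 48.8% lost and 50.4% gained.

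**Figure D1:**
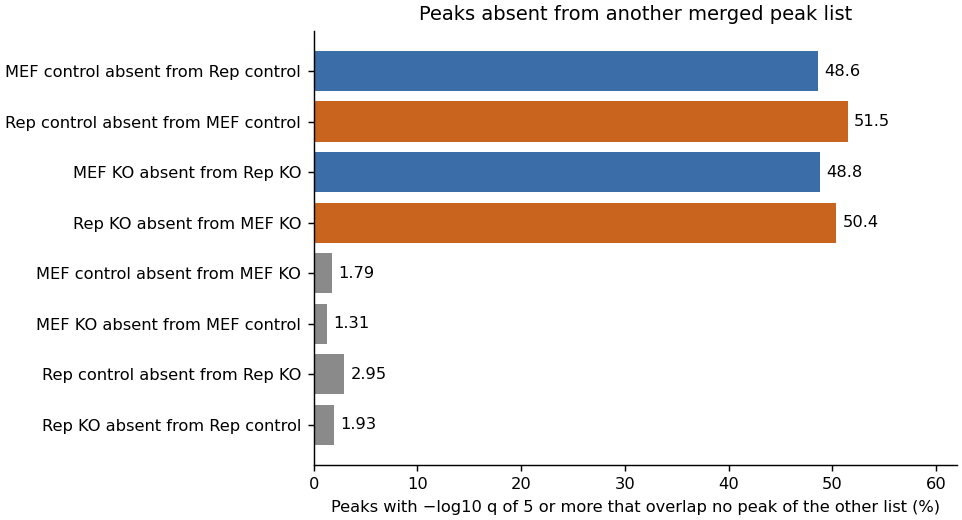
Share of the kept peaks of one merged list that overlap no peak of another list, in percent, for MEF against reprogramming lists (blue, lost, and orange, gained) and for control against KO lists of the same context (grey). The bars across 72 h reach 48.6% to 51.5%, and the bars between lists of one context stay between 1.31% and 2.95%.

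The same peaks were lost and gained in the KO libraries. Of the lost peaks, 97.5% overlapped a MEF KO peak, 95.1% were absent from the reprogramming KO list, and 92.7% met both conditions. Of the gained peaks, 95.5% overlapped a reprogramming KO peak, 96.8% were absent from the MEF KO list, and 92.4% met both. The KO cells came from the same cell line and were treated in the same way, so this repeat covers the libraries and the peak calls but not the model.

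Lost and gained peaks were shorter than shared ones, and lost peaks were also weaker. The fold enrichment of a peak over its local background, as MACS2 gives it, had a median of 3.34 at lost peaks, with 90% of them (5th to 95th percentile) between 2.37 and 6.05, and of 4.01 at shared MEF peaks. In the reprogramming list the medians were close, 3.38 at gained peaks (2.33 to 6.45) and 3.48 at shared ones (2.25 to 6.26). Median lengths were 679 bp for lost and 627 bp for gained peaks, against 996 bp and 993 bp for the shared peaks of the 2 lists. Near the minimum of 5, the share called lost was 72.4% of the peaks with −log10 q between 4 and 5 and 70.2% of those between 5 and 6, and at 10 or more it was 42.1%. The gained share went from 64.8% and 64% on either side of the minimum to 47.8% at 10 or more.

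Turnover was almost wholly distal to promoters. Of the 60566 lost peaks, 890 (1.47%) had their midpoint within 1000 bp of the start site of a protein-coding gene, and of the 63011 gained peaks, 929 (1.47%), whereas promoters made up 12.3% of the kept MEF peaks and 12.2% of the kept reprogramming peaks. Seen from the promoters, 5.8% of 15352 MEF promoter peaks were lost and 6.22% of 14938 reprogramming promoter peaks were gained. Of the distal peaks, 59676 of 109228 (54.6%) were lost and 62082 of 107436 (57.8%) were gained. The lost share was 40.9% at 1 to 5 kb from a start site and 77.5% beyond 500 kb, and the gained share went from 52.0% to 85.2% over the same distances.

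Strong promoter peaks were nearly all kept, but strong distal peaks were not. Among the promoter peaks in the lowest quintile of fold, 17.6% were lost, and in the highest quintile 0.716% (22 of 3071). Among distal MEF peaks the lost share went from 62.6% in the lowest quintile of fold to 41.6% in the highest. Distal reprogramming peaks showed no such gradient, with 56.3% gained in the lowest and 62% in the highest quintile. Lost peaks lay in introns (42.5%) and between genes (53.6%), and gained peaks did so in nearly the same shares (42.0% and 53.2%).

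Many genes had both losses and gains nearby. The median distance from a lost distal peak to the nearest gained one was 13.6 kb, and 40.1% of them had one within 10 kb. Of 17678 protein-coding genes that were nearest to at least 1 distal peak, 11306 had lost peaks, 13795 had gained peaks and 9370 had both. Whether both coincide more often than the numbers alone would give was not tested. Assigning a peak to the nearest start site is a convention and does not show which gene it acts on.

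The genes with the most lost peaks were these. Rbms3, an RNA-binding protein gene, had 81 of its 100 distal MEF peaks lost, and Maf, a large Maf transcription factor, had 68 of 77 (88.3%). Flrt2, a membrane protein that binds latrophilins, lost 79 of 97 peaks and had 61 gained. The other genes at the top for losses were Adgrl2 (80 of 114), Efna5 (78 of 112), Auts2 (77 of 115), Zfp608 (71 of 106) and Tbl1xr1 (66 of 83). On the other side, Cdh8, a classical cadherin, had 80 of its 83 reprogramming peaks gained (96.4%) and only 10 peaks in MEFs. Gains were 84 of 105 at Adgrl3, 83 of 101 at Lsamp, 82 of 106 at Tenm3, 71 of 85 at Celf2, 71 of 80 at Ptprd, 70 of 109 at Tenm4 and 69 of 73 at Pcdh20. Apart from Cdh8, which lost 6 of its 10 MEF peaks, these genes had many losses too. Examples were 64 of 86 MEF peaks at Tenm3, 64 of 105 at Tenm4 and 34 of 39 at Pcdh20. The genes named here were ranked by number, and a gene far from its neighbours is nearest to more peaks. Over all genes, 54.6% of distal MEF peaks were lost and 57.8% of distal reprogramming peaks gained. At 100000 to 500000 bp from a start site these shares were 69.3% and 68.7%, so several of the shares above are no higher than those of remote peaks.

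Fibroblast matrix and surface genes had the largest share of distal peaks lost among the lists that were not marker sets. Around the 44 genes of the list, 552 of 834 distal MEF peaks (66.2%) were lost, beside 54.6% over all genes, while 238 of 485 reprogramming peaks (49.1%) were gained, beside 57.8%. Around Tnc, the matrix glycoprotein tenascin-C, 56 of 65 peaks were lost and 9 of 18 gained. Thbs1, thrombospondin 1, lost 52 of 65 and had 8 of 23 gained. Fn1, fibronectin, lost 27 of 34 and had 5 of 11 gained. At the fibrillar collagen gene Col3a1 23 of 30 were lost, the strongest of them 41.9 kb upstream (chr1:45269219-45270022, fold 8.52). By contrast, Col1a1 lost 4 of 12 peaks and Sparc 2 of 8.

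The promoters of these matrix genes mostly stayed open. A promoter peak was present on both sides at 37 of 44 genes, at 3 it was found only in MEFs (Col6a3, Lum and the metalloproteinase gene Mmp3), and at 4 (Bgn, Cnn1, Col6a1 and Postn) the peaks were too weak for a call. Over all 21829 protein-coding genes, 14366 had a promoter peak in both lists, 527 (2.41%) in the MEF list only and 572 (2.62%) in the reprogramming list only. Lumican had lost all of its 4 distal peaks as well as its promoter peak of fold 3.89, and a single gained peak of fold 4.63 lay 2352 bp upstream. Among the 40 matrix genes with a promoter peak of any strength on both sides, 3 of the weak ones included, the change in fold, centred on all promoters, had a median of 0.20 on the log2 scale. Mmp2, a secreted gelatinase, went from 3.29 to 6.12 (1.14 after centring) and S100a4, a calcium-binding fibroblast marker, from 2.73 to 4.65 (1.01). Over all 15136 genes with a peak on both sides, 153 were higher and 160 lower past 2-fold (2.07%). The calls of Mmp2 and S100a4 rest on the centring: without it Mmp2 stood at 0.90 and S100a4 at 0.77, neither past 2-fold, and Col6a1, at −0.96 with centring, stood at −1.21.

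Fibroblast transcription factors lay nearer to the shares over all genes. Around 34 genes, 428 of 724 distal MEF peaks (59.1%) were lost, beside 54.6% over all genes, and 282 of 551 reprogramming peaks (51.2%) gained, beside 57.8%. Runx2, the osteoblast regulator, lost 34 of 44 peaks, Zeb1, a repressor of epithelial genes, lost 19 of 27, and Twist1, a mesenchymal bHLH factor, 11 of 15. Others lost few, such as Snai1, another repressor of epithelial genes, with 2 of 13, and Tead1, a TEAD factor gene, with 10 of 33. Promoter peaks of 33 of the 34 genes were present in both lists, and only that of the homeobox gene Meox1 (fold 2.43) was confined to MEFs. No promoter of the list was past 2-fold in either direction.

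The genes of the AP-1 factors had lower lost and gained shares than all genes (54.6% and 57.8%). Around Fos, Jun and 10 further genes of the list, 46 of 106 distal MEF peaks (43.4%) were lost and 30 of 80 reprogramming peaks (37.5%) gained. The lost share was 57.5% with both lists held to the minimum of 5 and 62.3% with a reciprocal overlap of 50%, settings in which the share over all distal peaks was higher too. Jun lost 17 of 31 and Fos 3 of 10. The promoter of Batf, a lymphoid AP-1 partner, had a peak in MEFs only (fold 4.57), and the other 11 promoters had one in both lists. The TGF-beta pathway, whose ligands keep cells mesenchymal, lost 200 of 377 distal peaks (53.1%), close to the 54.6% over all genes, and had 114 of 266 reprogramming peaks gained (42.9%), below the 57.8% over all genes. Tgfbr2, the type II receptor, lost 34 of 54 and had 5 of 27 gained.

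Pluripotency genes had a lost share close to that of the matrix genes. Around 43 genes, 280 of 426 distal MEF peaks (65.7%) were lost, beside 54.6% over all genes, and 232 of 373 reprogramming peaks (62.2%) were gained, near the 57.8% over all genes. Losses included 41 of 49 peaks at Klf4, 41 of 52 at the T-box gene Tbx3 and 26 of 35 at Klf5. Gained shares were high at some genes with few MEF peaks, where the definition of a gained peak favours them. At Zfp42 11 of 12 reprogramming peaks were gained, at Dppa4, an ES cell chromatin protein, 22 of 24, at Otx2, a homeobox factor of the primed state, 12 of 15, and at Nr0b1 all 4.

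Zfp42 had the strongest promoter gain of any gene. Its peak (chr8:43306770-43307269), 40 bp upstream of the start site, had a fold of 8.75 in reprogramming control and 8.95 in reprogramming KO cells. The MEF control list held no peak there and the MEF KO list 1 of fold 1.81. Promoter peaks found only after 72 h were also recorded at Nanog (fold 2.66), Nr0b1 (3.01), Gdf3 (3.54), Lefty1 (2.47) and Zscan10 (1.96). With Zfp42 this made 6 of 43 genes, beside 572 of 21829 (2.62%) over all genes. The promoter of Dppa5a was the reverse case, with a peak of fold 4.57 in MEFs only. Dppa2, Dppa4 and Tcl1 had no promoter peak in either list, and 30 genes had one in both.

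At Pou5f1, which encodes OCT4, 2 peaks were gained upstream of the gene. They lay 2249 bp upstream (chr17:35502888-35504649, fold 3.55) and 5227 bp upstream (chr17:35500560-35501021, fold 2.36), and no distal MEF peak was assigned to the gene. The promoter peak of Pou5f1 had a fold of 2.23 in MEFs and 3.03 after 72 h. The reprogramming cassette carries the coding sequence of 4 genes, so reads from it could be placed on their exons. The highest fold over coding exons was 2.23 in MEFs and 3.03 at 72 h for Pou5f1, 3.82 and 3.91 for Sox2, 2.58 and 2.73 for Klf4, and 2.32 and 3.55 for Myc. At Pou5f1, Sox2 and Klf4 the promoter folds were the same as these exon folds. The cassette was present in both groups, and its part in these values was not tested. The gained Pou5f1 peaks lie outside the exons. The peak counted for the Nanog promoter was a gained one in an intron, with its midpoint 1421 bp downstream of the start site (chr6:122708506-122709471), that reached into the promoter window.

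**Figure D2:**
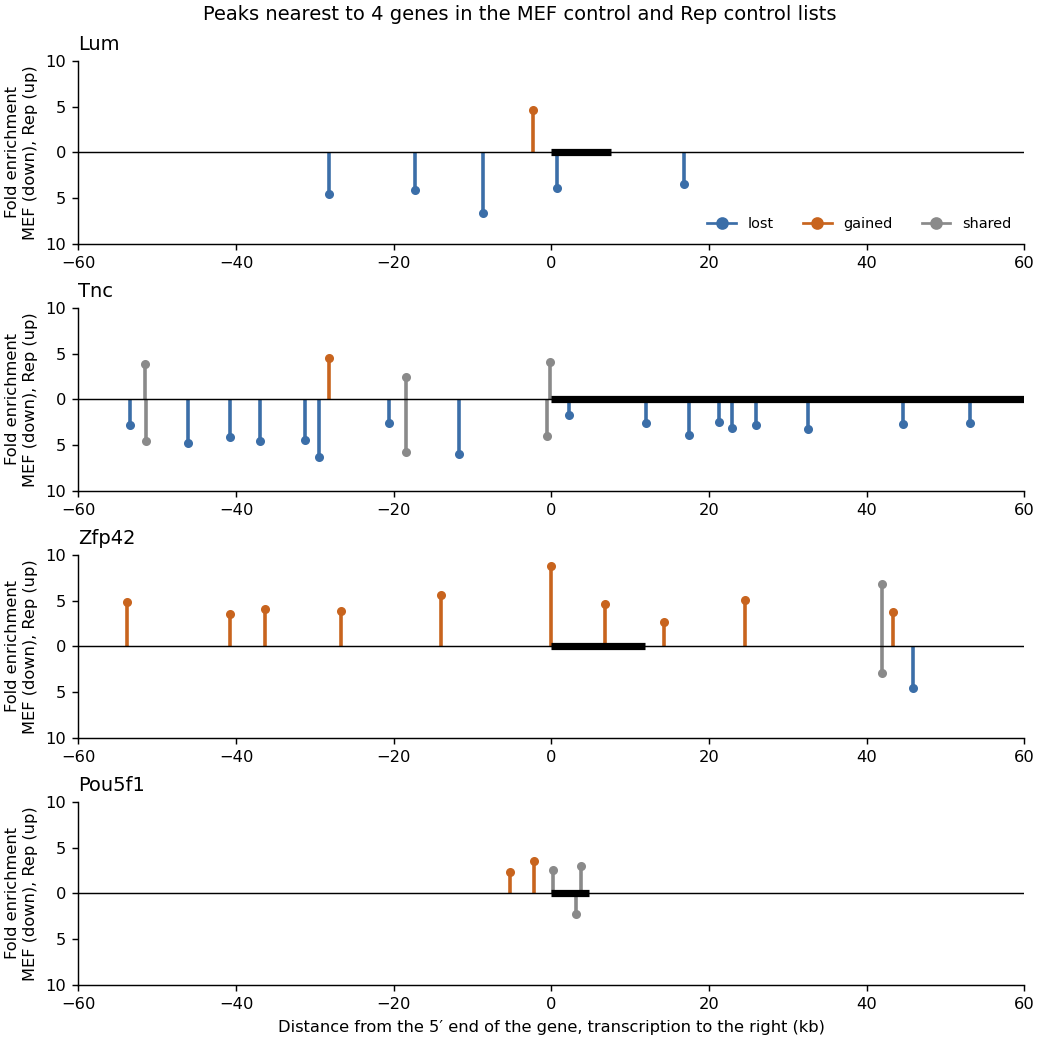
Peaks of the MEF control list (pointing down) and the reprogramming control list (pointing up) within 60 kb of the 5′ end of Lum, Tnc, Zfp42 and Pou5f1, with fold enrichment on the vertical axis, lost peaks in blue, gained in orange, shared in grey and the gene body as a black bar. Losses crowd around Lum and Tnc, and the gained promoter peak of Zfp42 reaches 8.75.

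Epithelial genes had a lower lost share than the fibroblast lists and a like gained share. Around 41 genes only 71 of 172 distal MEF peaks (41.3%) were lost, and 102 of 200 reprogramming peaks (51.0%) were gained. Both were below the shares over all genes (54.6% and 57.8%). The promoters of Cldn6, a tight junction claudin (fold 1.79), and Rab25, an epithelial trafficking GTPase (2.17), had a peak only after 72 h, and 33 of 41 had one in both lists. Gains included 9 of 12 peaks at the ETS factor gene Ehf and 4 of 5 at the splicing regulator gene Esrp1. A further gained peak of fold 5.88 lay 942 bp downstream of a start site of Esrp1, apart from the peak of fold 3.71 that overlapped its promoter in MEFs. At their promoters Cdh3, P-cadherin, and Marveld2 were higher past 2-fold with centring (both 1.03) but not without it (both 0.78). They were 2 of 39 genes of the list with a promoter peak on both sides (5.13%). Over all such genes, 2.07% were past 2-fold in either direction. Cdh1, E-cadherin, had 4 of 7 peaks lost and 4 of 7 gained, and its promoter fold was 4.65 in MEFs and 2.78 after 72 h. Genes chosen for constant use had the lowest lost share of the lists, with 16 of 59 distal MEF peaks (27.1%) lost, and 26 of 65 reprogramming peaks gained. Within that list Eef1a1, a translation elongation factor, was lower at its promoter, from 6.83 to 2.46 (a centred log2 change of −1.23). It was 1 of 18 genes with a promoter peak on both sides (5.56%).

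Markers of the labelled cell types were checked by their promoters. Of 15 fibroblast markers, 13 had a promoter peak in both lists, Lum only in MEFs, and Postn was too weak for a call. Of 8 embryonic stem markers, 5 had one in both lists, Nanog and Zfp42 only after 72 h and Dppa5a only in MEFs. Over all 21829 protein-coding genes, 65.8% had a promoter peak in both lists, 2.41% in MEFs only and 2.62% after 72 h only. Among the 5 were Pou5f1 and Sox2, whose promoter folds equal the highest folds over their coding exons, where reads of the cassette could be placed. An open promoter marks accessibility and not expression, and in a bulk assay fewer open cells and less opening per cell cannot be told apart. Of 6 blood markers, the promoters of Ptprc, Spi1 and Tyrobp had no peak in either list, 2 had one in both lists and that of Fcer1g was unclear.

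At the 8 lost promoter peaks of highest fold, values ran from 9.83 to 6.89. They belonged to Vmn1r40, Hacl1, BC067074, Adh4, Ttc41, Slc17a8, Pm20d1 and Prl6a1. All 8 were also in the MEF KO list and absent from the reprogramming KO list. These are a vomeronasal receptor, enzymes of fatty acid, alcohol and amino acid metabolism, a transporter, a prolactin family hormone and genes of less known function, and none is a fibroblast matrix gene. AP-1 strings were present in 5 of the 8, among them the 2 copies printed for Slc17a8, and in 4.5% of all promoter peaks of both lists. Among the gained promoter peaks of highest fold, they were in 2 of the 7 for which sequence was read. After Zfp42, the gained promoter peaks of highest fold were those of Clpx and Macf1 (8.16 each), Acaa2 (7.85), the olfactory receptor genes Olfr50 (7.66) and Olfr352 (7.56), Esp1 (7.47) and Gad1 (7.43).

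Among distal peaks, the 2 of highest fold on the lost side were exceptions. They lay near Tcstv3 (fold 24.1, 189 bp) and in Pan3 (fold 16.7, 190 bp), held runs of the telomere-type repeat TTAGGG, and were missing from the MEF KO list too. The next were near Isl1 (11.1), Piezo2 (10.6), Chmp3 (10.1), Hs3st1 (10.0), Pcdh20 (9.98) and Bckdhb (9.88), all present in MEF KO cells. The gained distal peaks of highest fold lay near Gm10330 (14.3), Gdpd4 (12.4), Slc10a2 (12.1), Zfp407 (11.5), Klhl1 (11.4), Crispld1 (11.4), Lrrk2 (11) and Rnf32 (10.9). All 8 were in the reprogramming KO list, and 7 were absent from the MEF KO list, which held a peak of fold 2.58 at the one near Gm10330. The SOX string was in 4 of the 7 of these for which sequence was read and in 0 of 7 lost distal peaks. Over all distal peaks it was in 21% of gained and 9.67% of lost ones. AP-1 strings were present in 2 of these 7 gained and 0 of the 7 lost distal peaks, the reverse of its order over all distal peaks. The 7 lost peaks include the 2 repeat runs, which held none of the strings.

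Shared peaks also differed in strength. At 69838 pairs of peaks that were each other's largest overlap, fold was lower overall after 72 h, with a median log2 change of −0.25, which was removed before calls. After that, 4886 pairs (7.0%) were higher and 2786 (3.99%) lower past 2-fold. Without centring, the balance turned, with 2679 higher and 6179 lower. Distal pairs held most of both, 4705 (8.52%) higher and 2595 (4.7%) lower of 55228, and promoter pairs few, 181 (1.24%) and 191 (1.31%) of 14610. The SD of the change was 0.61 over all pairs, 0.39 at promoters and 0.66 at distal peaks. Between control and KO lists of the same context it was 0.15 in MEFs, with 28 pairs higher and 0 lower in KO, and 0.17 in reprogramming cells, with 34 higher and 0 lower. In the KO pair of lists, 78.9% of the higher pairs found there were again past 2-fold and 99.9% had the same sign, and for the lower pairs these shares were 67.9% and 99.8%.

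**Figure D3:**
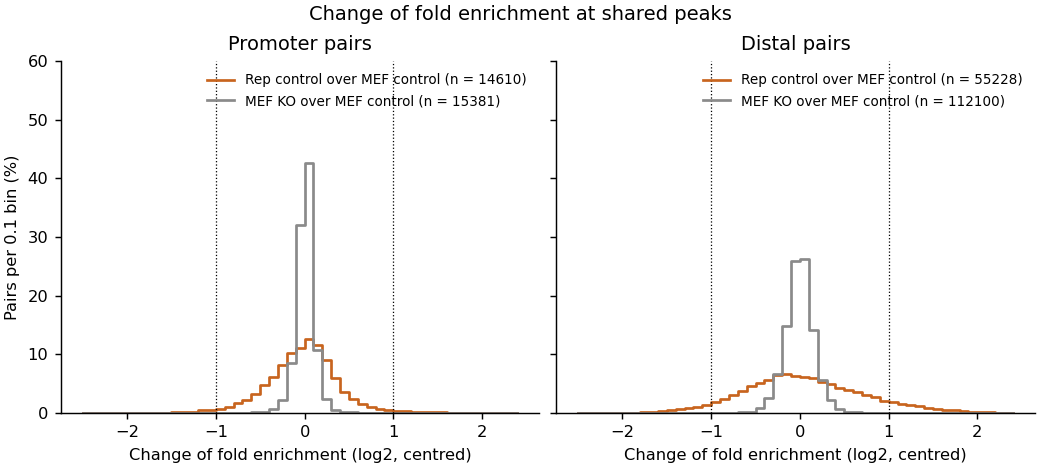
Distribution of the centred log2 change of fold enrichment at shared promoter pairs (left) and distal pairs (right), as the percentage of pairs per bin of 0.1. The change across 72 h (orange) spreads far wider than the change between control and KO MEFs (grey), with SDs of 0.39 against 0.10 at promoters and 0.66 against 0.16 at distal pairs, and dotted lines mark 2-fold.

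The largest increases among shared pairs were at distal peaks with little signal in MEFs. A peak near Mterf4, a mitochondrial transcription termination factor family member, went from a fold of 1.79 to 7.57 (centred log2 change 2.33). Peaks near Ccdc3 (3.09 to 12.1, 2.21), Flrt2 (2.58 to 9.43, 2.11), Zc3h12c (2.85 to 10.3, 2.10) and Creb5 (1.94 to 6.99, 2.10) were also among the 8 largest, with those near Garem1, Ccdc71l and N6amt1. The sequences at Ccdc3 and N6amt1 were tandem repeats. The largest decreases were near Ythdc2 (9.90 to 2.61, −1.67), Mkrn1 (7.78 to 2.06, −1.67), Klf6, which encodes a zinc finger factor (8.49 to 2.28, −1.65), Dynlrb2, Fam229a, Uck2, Skap2 and Caprin2 (−1.58).

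The AP-1 string set lost and gained peaks apart. It was in 27.0% of lost distal peaks, 11.1% of gained distal peaks and 20.4% of shared distal MEF peaks, beside 18.9% of all distal peaks of both lists and 5.2% of 32851 RefSeq promoters of the same 300 bp length. The TEAD string was in 9.27% of lost and 4.46% of gained peaks (6.44% of all distal peaks, 3.85% of RefSeq promoters). The RUNX string was in 11.6% and 8.64% (9.42% and 5.27%), and the NFI string TTGGCA in 20.6% and 12.6% (16.2% and 14.1%). Stronger peaks held AP-1 more often in both classes, with 23.0% in the lowest and 34.4% in the highest quintile of fold among lost peaks and 10.0% and 13.5% among gained ones. At shared distal pairs it was in 33.8% of those lower and 21.9% of those higher past 2-fold.

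The strings of the reprogramming factors showed the reverse order. SOX was in 21% of gained and 9.67% of lost distal peaks (14.2% of all distal peaks, 9.28% of RefSeq promoters), and KLF in 9.41% and 2.15% (5.75% and 8.58%). The composite OCT-SOX string was rarer, at 2.24% of gained and 0.784% of lost peaks (1.28% and 0.731%), and OCT alone was in 2.78% and 1.86% (2.1% and 1.74%). At least 1 of these 4 strings was in 32.4% of gained and 14.0% of lost distal peaks, so most gained peaks held none of them in this window. SOX and KLF together were in 1.45% of gained and 0.149% of lost peaks. Among gained peaks SOX went from 17.3% to 27.8% between the lowest and highest quintile of fold, OCT-SOX from 1.63% to 3.17%, and KLF from 10.3% to 8.01%.

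Other strings differed in their own ways. The CTCF string was in 6.26% of shared distal MEF peaks but 0.612% of lost and 0.723% of gained ones (2.95% of all distal peaks, 0.557% of RefSeq promoters). The E-box CAGGTG read by SNAI and ZEB repressors was in 9.99% of lost, 18.5% of gained and 17.1% of shared MEF peaks (16.1% of all distal peaks, 20.2% of RefSeq promoters). The MYC E-box CACGTG was in 3.36% of lost and 2.93% of gained peaks, below the 4.45% of shared ones (3.71% of all distal peaks, 7.15% of RefSeq promoters). The string AACCGGTT of the epithelial GRHL factors was rare throughout, at 0.0888% and 0.0306% (0.0817% of all distal peaks, 0.146% of RefSeq promoters). The CEBP strings TTGCGCAA and TTGCACAA were in 1.72% and 1.1% (1.3% and 1.19%), and the CRE string TGACGTCA in 0.31% and 0.159% (0.297% and 1.79%).

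The strings lay towards the middle of the peaks. In lost peaks the AP-1 string was found 6.68 times per 100 peaks in the 50 bp bin next to the midpoint and 1.01 times in the bin at 475 bp before it. In gained peaks SOX reached 4.5 per 100 peaks next to the midpoint, against 2.02 at the edge, and KLF 2.0 against 0.543. AP-1 had a central maximum in gained peaks as well, with 2.4 against 0.831 per 100 peaks, while SOX and KLF strings had none in lost peaks. The KO lists gave nearly the same shares, with AP-1 in 26.9% of lost and 11.5% of gained peaks, SOX in 9.7% and 20.6%, KLF in 2.17% and 9.81%, and OCT-SOX in 0.777% and 2.2%.

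**Figure D4:**
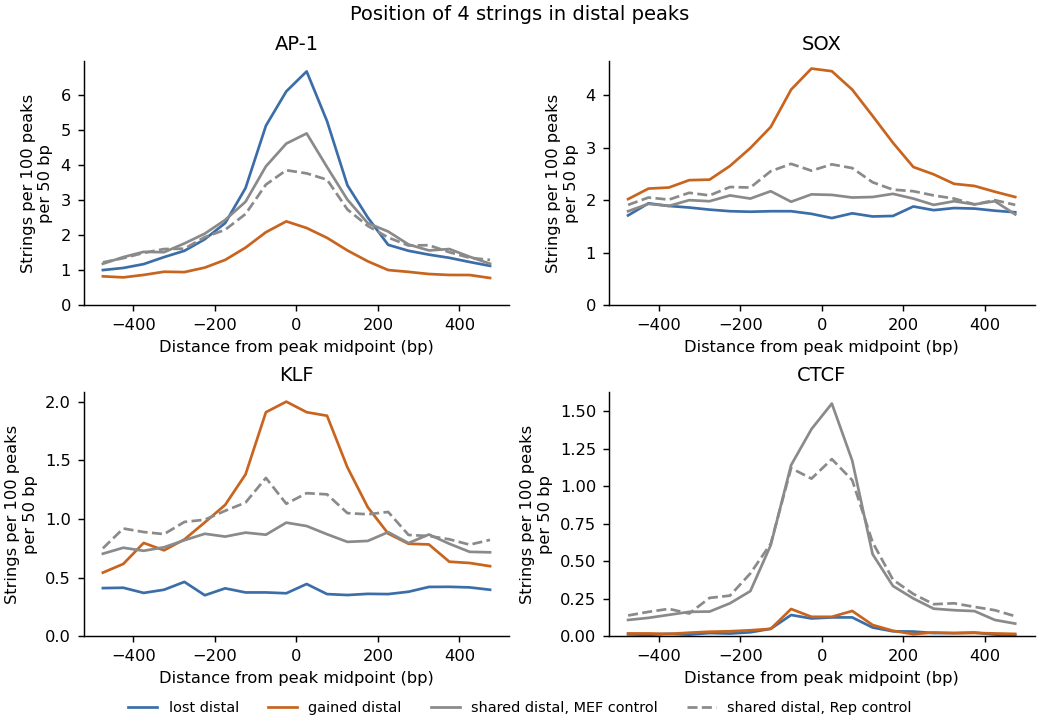
Number of AP-1, SOX, KLF and CTCF strings per 100 distal peaks in bins of 50 bp, by distance from the peak midpoint, for lost (blue), gained (orange) and shared peaks (grey, solid for the MEF and dashed for the reprogramming list). AP-1 is highest at the centre of lost peaks (6.68), SOX (4.5) and KLF (2.0) at the centre of gained peaks, and CTCF at the centre of shared peaks (1.55).

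Base composition and repeats moved with the classes in part. Median GC content was 44.0% at lost, 43.3% at gained and 47.7% at shared distal peaks. Of gained distal peaks, 22.3% lay mostly in repeat-masked sequence, against 4.63% of lost ones, 6.28% of shared MEF and 8.78% of shared reprogramming peaks. Of the 17840 distal reprogramming peaks that were mostly masked, 77.7% were gained, and of the others 53.8%. In peaks without any masked base, AP-1 was in 26.6% of lost and 12.8% of gained peaks, SOX in 9.86% and 23.2%, OCT-SOX in 0.945% and 2.38%, and KLF in 2.29% and 7.49%. KLF was in 14.9% of the mostly masked gained peaks and in 7.83% of the other gained distal peaks. Whether the KLF strings themselves lay in masked bases was not counted.

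Reads of single libraries were at hand only at intervals that the authors had listed for an effect of the Zfp266 knock-out, and all 12 libraries had counts at 70 of them. All 70 were distal. The control libraries held 4798 to 8159 reads within these intervals, which is not their sequencing depth. Between reprogramming control and MEF control, the edgeR quasi-likelihood test with Benjamini-Hochberg adjustment over the 70 called 47 higher (67.1%) and 13 lower (18.6%) at an adjusted p under 0.05. The balance rests on the size factors of the authors, since TMM factors computed over the listed intervals gave 28 higher and 23 lower and raw library totals 28 and 24, and each of them turned 8 calls. In the KO libraries the same contrast gave 45 higher and 16 lower, and 7 intervals called in the control cells had the opposite sign there. The 3 libraries of a group are separate samples by their labels, but nothing says whether they came from separate cultures, so the p-values measure the spread between samples, which may be technical.

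The peak lists were called on the merged reads of these same libraries, so sorting the intervals by the lists fixes much of the direction, and the counts are given as a description. All 20 intervals with a peak in the reprogramming control list only were higher (median log2 2.09), and of 5 with a peak in the MEF control list only, 4 were lower and 1 was not called. Among 33 with a peak in both lists 19 were higher and 9 lower, and of 12 with a peak in neither 8 were higher.

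Individual intervals showed the size of the changes, which depends on the scaling as well. With TMM factors the log2 changes were lower throughout, so that the change at Spink6 was 3.76 in place of 4.50, Fryl 3.36, Ubap1 1.62 and Btbd9 −3.06 in place of −2.32. The interval near Spink6, a serine protease inhibitor gene (chr18:44075907-44076549, 2460 bp downstream of its start site), had 20.1, 14.7 and 25.8 normalised counts in the MEF control libraries and 455, 438 and 483 in the reprogramming control libraries. The groups lay far apart, and the interval rose by a log2 of 4.50 ± 0.14 (SE, edgeR adjusted p = 1.4e-129). The interval 24767 bp upstream of Fryl (chr5:73215539-73217753) had 10.8, 18.3 and 22.0 counts in MEFs and 280, 284 and 286 after 72 h (log2 4.10, edgeR adjusted p = 6.18e-112). In both cases the MEF control list held no peak. That near Ubap1, which encodes an ESCRT-I subunit (chr4:41352020-41353562), rose from 77.6, 62.3 and 79.4 counts to 332, 378 and 429 (log2 2.36, edgeR adjusted p = 3.92e-70). Intervals near Tent5b (log2 2.59) and Mef2a, a MADS-box factor gene (2.64), were also among the 6 with the smallest p-values of those that rose.

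The decreases with the smallest p-values were smaller in size than the largest increases. The interval 74202 bp downstream of the start site of Btbd9 (chr17:30438542-30440404) had 321, 348 and 327 normalised counts in MEF control and 80.4, 64.4 and 52.2 in reprogramming control libraries. It fell by 2.32 on the log2 scale (SE 0.12, edgeR adjusted p = 2.5e-60), and both lists held a peak there. The interval near Stab2, a hyaluronan scavenger receptor gene (chr10:86947026-86948055), had 146, 146 and 141 counts in MEFs and 32.4, 29.0 and 39.2 after 72 h (log2 −2.13, edgeR adjusted p = 8.58e-42). That upstream of Scd3, a stearoyl-CoA desaturase gene (chr19:44225408-44226539), fell from 97.1, 144 and 119 to 32.4, 30.8 and 19.6 (log2 −2.06, edgeR adjusted p = 3.45e-34), without overlap between the groups. Ankdd1a (log2 −2.24), Adgrv1 (−1.25) and Rasl10a (−1.70) made up the rest of the 6. Over the 70 intervals, called or not, all 3 reprogramming control libraries lay above all 3 MEF control libraries at 46 and below them at 12.

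**Figure D5:**
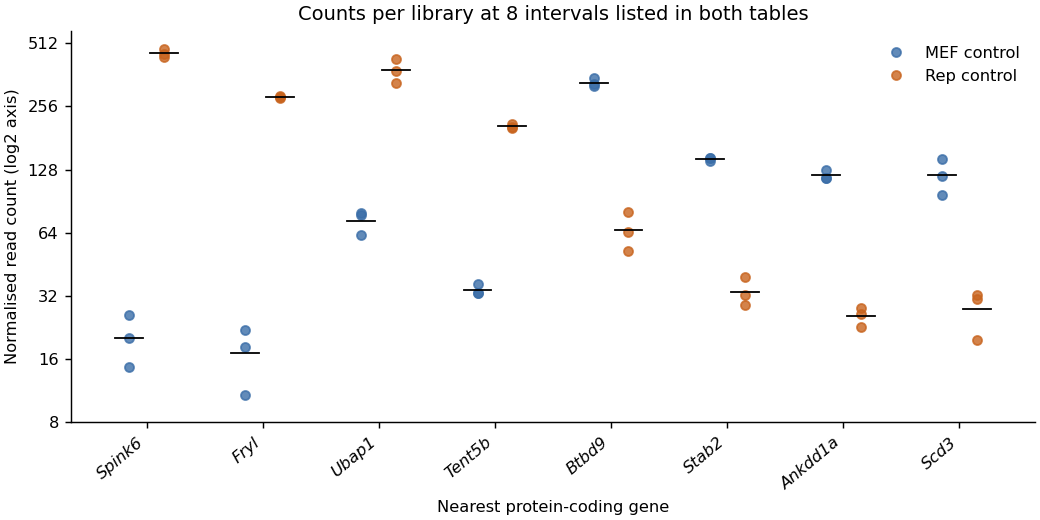
Normalised counts (log2 axis) of the 3 MEF control and 3 reprogramming control libraries at the 4 intervals with the smallest adjusted p in each direction, with a black line at the mean of each group. At all 8 intervals the 3 libraries of one group lie wholly above the 3 of the other, from 20.1, 14.7 and 25.8 against 455, 438 and 483 at Spink6 to 97.1, 144 and 119 against 32.4, 30.8 and 19.6 at Scd3.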

How the data were processed

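Per the labels and the methods, reads were trimmed with Cutadapt and aligned to GRCm38 with BWA, duplicate, mitochondrial, blacklisted and improperly paired reads were removed, and broad peaks were called with MACS2, with the replicates of a group merged in the deposited lists. The deposited peak lists give a fold enrichment (a ratio) and a −log10 q-value for each peak, and the authors kept peaks from about −log10 q of 1. The depth behind these lists is unknown. The deposited tables give raw read counts and a normalised signal, which is each count over the DESeq2 size factor of its library, at intervals that passed the authors' threshold for a KO effect. Their columns of fold changes, standard errors, statistics and p-values were not used.

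Peaks were compared with bedtools 2.31.1 (overlap of 1 bp) and kept at −log10 q of 5. A peak was a promoter peak within 1000 bp of a start site of a protein-coding gene (GENCODE M21) and otherwise distal, and was given to the gene with the nearest start site. A gene had a promoter peak where any peak overlapped these 1000 bp on either side of a start site. A promoter was called open in 1 list only where that list had a kept peak and the other list none of any strength, and unclear where a weaker peak stood in the way. Fold changes at shared pairs were log2 ratios less the median of all pairs, called past 2-fold. Sequence was read from the GRCm38.p6 assembly, in which 0 of 661623 peaks ran past a chromosome end, and promoter sequences were those of RefSeq (GRCm38.p6). Ctgf and Cyr61 were matched as Ccn2 and Ccn1.

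Counts at the 70 intervals in both tables were tested with edgeR 4.0.16 (quasi-likelihood, two-sided, R 4.3.3) over all 12 libraries with the authors' size factors, which ran from 0.63 to 1.46. Replicates of a group varied beyond sampling noise (ratio of chi-square to its degrees of freedom 1.13 to 1.69) and were kept as separate samples. DESeq2 1.42.0 was an alternative. Scripts were tested on simulated data.

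Groups came from the sample titles. Genes that could be named were the members of the gene lists, of which examples are given, the 8 promoter and 8 distal peaks of highest fold among lost and gained, the 8 largest changes of shared pairs in each direction with both peaks at 5 or more, the 8 genes with the most lost and gained peaks, and the 6 intervals of smallest adjusted p in each direction, and a few of the peaks, genes and intervals so chosen are not reported here. The comparison and the lists were chosen with earlier results of these data known. Alternatives were another q minimum, overlap, promoter distance, window, centring, scaling and the omission of each library.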

Additional observations from a re-analysis of the deposited data

How the results depend on the processing

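The counts of peaks depend on the thresholds. Gained peaks outnumbered lost ones by little, and the order turned with a reciprocal overlap of 50% (83110 lost, 82933 gained), with both lists held to 5 (71575 and 69575) and in the KO lists (60529 and 58676). A minimum of 10 on −log10 q left 39334 lost peaks, and no minimum gave 91258 lost and 95096 gained. Over these and the overlap alternatives, the lost share of distal peaks ran from 49.1% to 73.7% and the gained share from 55.6% to 74.9%. Shared pairs higher and lower numbered 2679 and 6179 without centring, 1916 and 908 with both peaks at 5 or more, 1953 and 1049 with a reciprocal overlap of 50%, and 11974 and 9963 at 1.5-fold. The promoter share of lost and gained peaks was 0.984% and 0.928% within 500 bp and 3.61% and 4.37% within 2500 bp. In the central 500 bp, the whole peak and at the minimum of 10, AP-1 was in 33.6%, 43.0% and 28.8% of lost and 15.2%, 20.8% and 11.7% of gained peaks, OCT-SOX in 3.16%, 4.42% and 2.36%, and KLF in 12.9%, 17.8% and 9.17% of gained peaks. In peaks without a masked base, an alternative chosen after seeing the data, the values were 26.6% and 12.8% for AP-1, 2.38% for OCT-SOX and 7.49% for KLF. Leaving out X and Y, or using the KO lists, also added after seeing the data, kept the counts of lost and gained peaks within 1.5 times. All gene lists but 6 kept their side of the share over all distal peaks in the 4 alternatives run. The exceptions were the TGF-beta list (lost), the embryonic stem markers (both) and the endothelial, blood, endoderm and trophoblast markers (gained).

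At the 70 intervals the calls were 57 with DESeq2, 51 with TMM factors, 52 with raw totals, 60 with filterByExpr or with the 6 control libraries alone, and 55 to 61 without 1 library. The replicate block gave 60, the same number, and same-numbered samples did not deviate together (r of −0.05, −0.07 and 0.02), so the numbers do not pair the samples.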

Other observations

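The sex chromosomes had higher gained shares than any autosome. The lost share was 41.1% to 53.6% on autosomes, 54.7% on X and 29.4% (15 of 51) on Y. On autosomes the gained share of reprogramming control peaks ran from 43.3% (chromosome 11) to 56.4% (chromosome 14), and on X it was 64.1% (2277 of 3555). On Y the MEF control list held 51 kept peaks and the reprogramming control list 144, of which 111 were gained (77.1%). At any q, the Y peaks numbered 61 in MEF control and 62 in MEF KO, but 319 in reprogramming control and 284 in reprogramming KO. Cells of the host embryos may be among the MEF libraries, in a share not known here, and the part of a different cell make-up in these counts and in the lost and gained peaks was not tested. Without X and Y, 58954 peaks were lost and 60623 gained.

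Hprt, on the list of constant promoters and on X, had no promoter peak in any of the 4 lists, although it is used by all cells. E14Tg2a, the parent of the ES cell line, is known as a line with a deletion at Hprt. Whether that deletion bears on the missing peak was not tested.

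Markers of other lineages had both losses and gains, many of them in shares near the 54.6% lost and 57.8% gained over all distal peaks. Endothelial markers lost 63 of 101 distal peaks and had 55 of 95 gained, with the promoter peak of Cdh5 (VE-cadherin) present in MEFs only, those of Tie1 and Emcn in neither list and those of the other 3 markers in both. Trophoblast markers lost 11 of 32 and had 28 of 51 gained, among them 11 of 20 at Tfap2c and 7 of 10 at Elf5, and no promoter of that list was open on one side only. Neural markers lost 25 of 49 and gained 28 of 54, endoderm markers 38 of 67 and 39 of 66, blood markers 33 of 53 and 24 of 41, and muscle markers 12 of 26 and 9 of 22, with Myog open at its promoter only after 72 h (fold 2.59). Epithelial markers lost 13 of 35 and gained 21 of 40, embryonic stem markers 28 of 52 and 24 of 43, and fibroblast markers 168 of 258 and 64 of 144.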
